A study of Homo sapiens with 6 samples.

Results

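The aldo-keto reductases described here are 7 human genes: AKR1C1, AKR1C2, AKR1C3, AKR1C4, AKR1B1, AKR1B10 and AKR1A1. They were chosen by their measured values in these same columns, so every level and fold of a member below is a description and carries no test. Together they are 7 of 58174 genes in the table and 61 of 199167 transcripts. The RNA came from MDA-MB-231, an established human triple-negative breast cancer line. The control group (NC) has the genotype label control, and the groups KO1 and KO2 are both labelled as knockouts of ARID1A, which encodes a subunit of the BAF remodeller of chromatin. The labels name no agent, time point or rescue, and give neither the guide behind each knockout nor whether a knockout is 1 clone or a pool. GEO lists 6 samples, 2 per group, prepared with Trizol and a stranded total RNA kit, but the table holds 1 column per group for each unit, so no spread between cultures can be given.

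The aldo-keto reductases named above are monomeric enzymes that use NADPH to reduce aldehydes and ketones to alcohols. The AKR1C enzymes act on steroid hormones, prostaglandins and carbonyl compounds, AKR1B1 reduces glucose to sorbitol and AKR1B10 reduces retinal and lipid aldehydes. Several family genes are known targets of NRF2, the transcription factor of the antioxidant response, and in breast cancer cells AKR1C3 and AKR1B1 have been studied for hormone and prostaglandin metabolism.

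The AKR1C genes are close copies of each other, which bears on how reads are divided among them. The 4 lines below show the same window of each coding sequence, spliced, from coding base 43 to coding base 162. This window holds the most differences between AKR1C1 and AKR1C2. Capitals in AKR1C2, AKR1C3 and AKR1C4 mark bases that differ from AKR1C1, and capitals in AKR1C1 mark bases that differ from AKR1C2. The windows lie in exons within chr10:4963487-4965991 (AKR1C1, plus strand), chr10:5001604-5003793 (AKR1C2, minus strand), chr10:5094487-5096487 (AKR1C3, plus strand) and chr10:5196910-5200258 (AKR1C4, plus strand) of GRCh38, the assembly also called hg38, with GENCODE 29 transcript models.
AKR1C1: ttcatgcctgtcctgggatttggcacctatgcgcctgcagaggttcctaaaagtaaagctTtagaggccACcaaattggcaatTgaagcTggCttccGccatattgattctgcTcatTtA
AKR1C2: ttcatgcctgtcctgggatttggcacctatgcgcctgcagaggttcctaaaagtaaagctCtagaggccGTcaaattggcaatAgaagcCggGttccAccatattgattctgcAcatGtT
AKR1C3: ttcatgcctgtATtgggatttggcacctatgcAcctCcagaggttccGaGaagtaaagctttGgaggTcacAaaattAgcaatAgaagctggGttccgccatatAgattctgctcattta
AKR1C4: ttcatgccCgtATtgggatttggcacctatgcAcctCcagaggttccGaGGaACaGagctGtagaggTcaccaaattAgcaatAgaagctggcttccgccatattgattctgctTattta
In this window 10 of 120 bases of AKR1C2, 13 of AKR1C3 and 16 of AKR1C4 differed from AKR1C1. Over the whole coding sequence AKR1C1 and AKR1C2 differed at 19 of 969 bases (98.04% identity) and shared an identical run of 186 bases. AKR1C3 was 91.4% and AKR1C4 88.5% identical to AKR1C1, AKR1B1 and AKR1B10 were 76.7% identical to each other, and AKR1A1 was 57.9% identical to AKR1C1. Of all 100-base stretches of the main transcripts, 82.6% in AKR1C1-202, 67.1% in AKR1C2-201 and 95.02% in AKR1C3-201 occurred in no other gene. All of those in AKR1B1-201 and AKR1A1-202 were found in no other gene. For 50-base stretches the shares were 71.3% in AKR1C1-202, 47.8% in AKR1C2-201 and 87.9% in AKR1C3-201. They were 95.2% in AKR1B1-201, which shares some with AKR1B1 pseudogenes, and 100% in AKR1A1-202. The division of counts between AKR1C1 and AKR1C2 is therefore uncertain, and their summed count is given as well.

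The likeness of AKR1C1 and AKR1C2 extends upstream of the transcripts AKR1C1-202 and AKR1C2-201. The next lines show the stretch just before the first exon of each of these transcripts and the matching stretch of AKR1C3. They come from RefSeq promoter windows on GRCh38.p14. They show how alike these stretches of AKR1C1, AKR1C2 and AKR1C3 are. The AKR1C2 stretch lies inside the annotated gene, since other AKR1C2 transcripts start farther upstream, up to chr10:5018031. The AKR1C3 stretch also lies inside its gene, which starts at chr10:5035354, and is not just before AKR1C3-201 or AKR1C3-209. Coordinates are chr10:4963165-4963252 (AKR1C1, plus strand), chr10:5004024-5004107 (AKR1C2, minus strand) and chr10:5048539-5048622 (AKR1C3, plus strand), and capitals mark bases that differ from AKR1C1 or are not in it.
AKR1C1: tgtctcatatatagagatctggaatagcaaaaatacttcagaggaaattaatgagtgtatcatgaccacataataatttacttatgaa
AKR1C2: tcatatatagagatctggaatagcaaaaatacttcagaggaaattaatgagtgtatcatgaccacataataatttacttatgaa
AKR1C3: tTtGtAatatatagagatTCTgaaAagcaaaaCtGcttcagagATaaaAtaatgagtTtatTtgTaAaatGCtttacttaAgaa
The AKR1C2 stretch differed from AKR1C1 at 0 of 84 bases and the AKR1C3 stretch at 18 of 83 aligned bases. The AKR1C3 stretch also holds 1 inserted base, in capitals too, and lacks 5 bases of AKR1C1, so its line does not run base for base against the others. Over the 250 bases before the RefSeq start, 1 of 246 aligned bases differed between AKR1C1 and AKR1C2 (99.6% identity), and AKR1C4 was 67.1% identical to AKR1C1. RefSeq windows were matched for 6 of the 7 members (8 windows). AKR1B10 was the member with no window. On both strands of these windows, the core of the antioxidant response element, TGACNNNGC, was found 0 times and the AP-1 site TGANTCA 0 times. Of 35116 windows of the same 250-base length over all genes, 10.9% held the former and 6.57% the latter. The CCAAT box, found in 32.0% of all windows, was present once in the windows of AKR1C1 and AKR1C2, in both windows of AKR1C3 and in 1 window of AKR1B1, and 0 times in those of AKR1C4 and AKR1A1. The first pair of motifs can match the same bases, since both begin with TGA. These windows often lie inside annotated exons of longer transcripts: all 250 bases did for AKR1A1, AKR1C4 and 1 window of AKR1C3, and 162, 166 and 184 did for AKR1C1, AKR1C2 and 1 window of AKR1B1. No window covers the start of AKR1C3-209, the main AKR1C3 transcript in NC. A count of 0 says only that these letters were not in these windows.

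Estimated counts totalled 26798753 in NC, 25801499 in KO1 and 26144758 in KO2. RNA of ARID1A itself measured 77.5, 45.5 and 83.9 CPM in the columns labelled NC, KO1 and KO2, so the KO2 column was not lower than NC in the RNA of the targeted gene, and the names KO1 and KO2 are used below as labels. CPM are counts scaled to a common column size by TMM, a scaling that sets the bulk of genes equal between columns. Mitochondrially encoded genes took 12.8%, 20.5% and 16.9% of counts in NC, KO1 and KO2. Among markers of the line, VIM, CD44, AXL, CAV1 and ZEB1 were present in all columns and SPARC was at 3.69, 0.260 and 2.32 CPM. The receptor gene PGR had 0 counts in all columns and ESR1 had 0, 0 and 14 counts. Of the other genes listed as luminal or receptor genes, ERBB2 was at 75.9, 27.9 and 52.4 CPM, KRT8 at 436, 643 and 559.5 CPM, GATA3 at 8.96, 15.3 and 15.6 CPM, and CDH1 had 8, 7 and 30 counts. Of 8 markers of hepatocytes, the cells known for AKR1C4, 4 (APOB, TTR, CYP3A4 and FGB) had 0 counts in all columns, and the summed level of all 8 was 53.9, 54.3 and 37.0 CPM, nearly all of it SERPINA1. Of 7 fibroblast markers 2 were measured, with DCN at 0 in all columns and summed levels of 33.0, 50.6 and 39.8 CPM. COL1A1 made up most of that sum, at 19.8, 49.5 and 36.3 CPM, while PDGFRB was lower in both knockout columns, at 10.9, 0.433 and 2.39 CPM, and LUM was at 1.25, 0.173 and 0.357 CPM. Of 6 leukocyte markers 2 were measured, with summed levels of 9.82, 2.51 and 9.35 CPM. Scaling without the mitochondrial genes left all 14 folds of the members against NC within their counting error, and the part of these markers in the results was not tested. In bulk RNA, fewer cells of a type and less RNA per cell cannot be told apart.

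A gene is called measured where its mean over the 3 columns reaches 1 CPM. The size rule, which has no p-value, asks for a log2 fold of 1 or more in either direction, computed with 2 prior counts, and for an exact 95% interval of the fold that leaves out equality. Intervals in brackets cover counting error only. They leave out the spread between cultures and the error in how the estimation divided reads among transcripts. Fragments were also counted without molecular identifiers. Where a column had 0 counts, the fold is the ratio against a floor of 3 counts in that column. The lower limit in brackets is then the lower end of the exact 95% interval, which is smaller than that ratio. Both knockout columns are set against the same NC column, so their folds are not independent.

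Of the 7 members, 5 were measured. AKR1C1, AKR1C2, AKR1C3 and AKR1B1 were lower in KO1 and lower in KO2, and AKR1A1 passed in neither direction. AKR1C4 and AKR1B10 stayed under 1 CPM. Over all 14522 measured genes the size rule called 17.7% lower and 15.2% higher in KO1, 10.1% lower and 11% higher in KO2, 5.78% lower in both and 6.18% higher in both. Since the members were chosen from these contrasts, and AKR1C2 reached a mean of 1 CPM only through NC, the count of members is not read against those shares. AKR1B10, at a mean of 0.859 CPM, lay just outside the minimum, and AKR1C2, at 5.90 CPM, was the measured member nearest to it. The balance of all genes depends on the scaling: 46.1% of the genes past the rule in KO1 were higher, against 33.3% with total counts and 26.9% with deposited TPM, which put the median log2 fold of all genes at -0.02, -0.24 and -0.38.

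**Figure D1:**
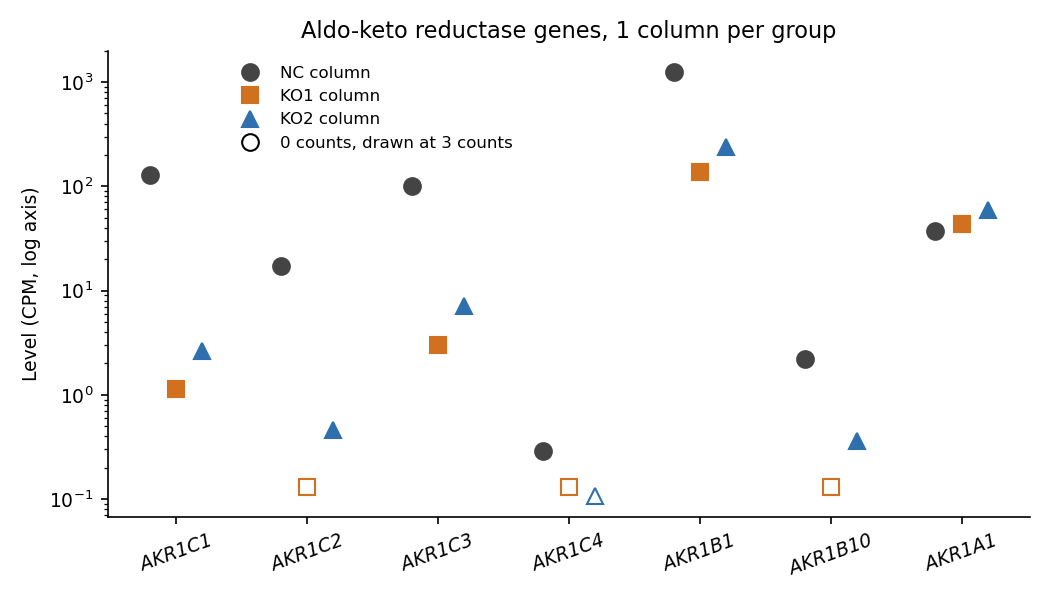
Level of each aldo-keto reductase gene in CPM (log axis) in the NC, KO1 and KO2 columns, 1 point per column; open symbols are columns with 0 counts, drawn at the floor of 3 counts. In AKR1C1, AKR1C2, AKR1C3, AKR1B1 and AKR1B10 the NC point is highest and KO1 is lowest, at 0 counts in AKR1C2 and AKR1B10, while AKR1A1 stays between 37.5 and 59.0 CPM.

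AKR1C1 (ENSG00000187134, hg38 chr10:4963253-4983283, plus strand) encodes a reductase known for inactivating progesterone. Counts in NC, KO1 and KO2 were 3581, 26 and 74, or 128, 1.12 and 2.64 CPM. NC was far above both knockout columns, and KO2 lay above KO1. The fold was 114-fold lower in KO1 (77.7 to 175) and 48.6-fold lower in KO2 (38.6 to 62.0). Between the knockout columns, KO2 was 2.35-fold higher than KO1 (1.48 to 3.83). Of 14522 measured genes, 15 had a lower fold in KO1 and 24 in KO2.

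The annotation lists 5 transcripts of AKR1C1, and all 5 had counts in NC. The full-length AKR1C1-202 took 91.7% of the gene's counts in NC, with 3285, 26 and 67 counts in NC, KO1 and KO2. It was 105-fold lower in KO1 (71.3 to 160) and 49.2-fold lower in KO2 (38.6 to 63.6). The shorter AKR1C1-203 had 173, 0 and 0 counts. Against the floor it was 47.8-fold lower in KO1 (lower limit 38.4) and 57.9-fold lower in KO2 (lower limit 46.6). The noncoding AKR1C1-205 had 76, 0 and 6 counts. Every AKR1C1 transcript was thus highest in NC, and in KO1 AKR1C1-202 was the transcript above 0.

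AKR1C2 (ENSG00000151632, chr10:4987400-5018031, minus strand) encodes a reductase known for inactivating dihydrotestosterone. NC held 481 counts, KO1 held 0 and KO2 held 13, or 17.2, 0 and 0.464 CPM. Against the floor, KO1 was 133-fold lower than NC (lower limit 108), and KO2 was 37.1-fold lower than NC (21.5 to 70.2). KO2 was 3.58-fold above the floor in KO1 (lower limit 2.52). Counts fell on 2 of its 10 transcripts: AKR1C2-201 with 299, 0 and 13 counts, and AKR1C2-204, which keeps an intron, with 182, 0 and 0. An antisense gene inside AKR1C2, ENSG00000224251, had 7, 0 and 0 counts, and the counting is not stated to use strand. For AKR1C1 and AKR1C2 summed, a value that does not depend on how reads were divided between them, the counts were 4062, 26 and 87. That sum was 129-fold lower in KO1 (88.2 to 198) and 46.9-fold lower in KO2 (37.9 to 58.6).

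AKR1C3 (ENSG00000196139, chr10:5035354-5107686, plus strand) encodes a reductase known for making testosterone from androstenedione and for prostaglandin F synthesis. NC had 2842 counts against 69 in KO1 and 199 in KO2, or 102, 2.98 and 7.10 CPM. NC was again far above both knockout columns. The gene was 34.1-fold lower in KO1 (26.9 to 44.0) and 14.3-fold lower in KO2 (12.4 to 16.6), and KO2 was 2.38-fold higher than KO1 (1.80 to 3.18). Of the measured genes, 89 had a lower fold in KO1 and 86 in KO2.

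The size of the AKR1C3 difference rests on 1 transcript. AKR1C3-209 held 2493 counts in NC, 87.7% of the gene, and 0 in both knockout columns. AKR1C3-201, whose coding sequence is compared above, had 257, 61 and 181 counts, or 9.21, 2.64 and 6.46 CPM, and it made up 9.04% of the gene in NC and 88.4% in KO1. Without AKR1C3-209, an alternative added after seeing the data, the gene had 349, 69 and 199 counts. It was then 4.19-fold lower in KO1 (3.23 to 5.51) and 1.76-fold lower in KO2 (1.47 to 2.11), and its log2 fold in KO2, -0.81, no longer passed the size rule. AKR1C3-209 is 1405 bases long with 9 exons, starts at chr10:5077638, 16.2 kb upstream of AKR1C3-201, and shares 75.8% of its bases with it. Its first exon, chr10:5077638-5077977, is 340 bases long, and 232 bases of the transcript are in no other AKR1C3 transcript. Its annotated coding sequence is 900 bases against 969 in AKR1C3-201, with 885 bases in common. How the estimation divided reads between the shared bases was not tested.

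**Figure D2:**
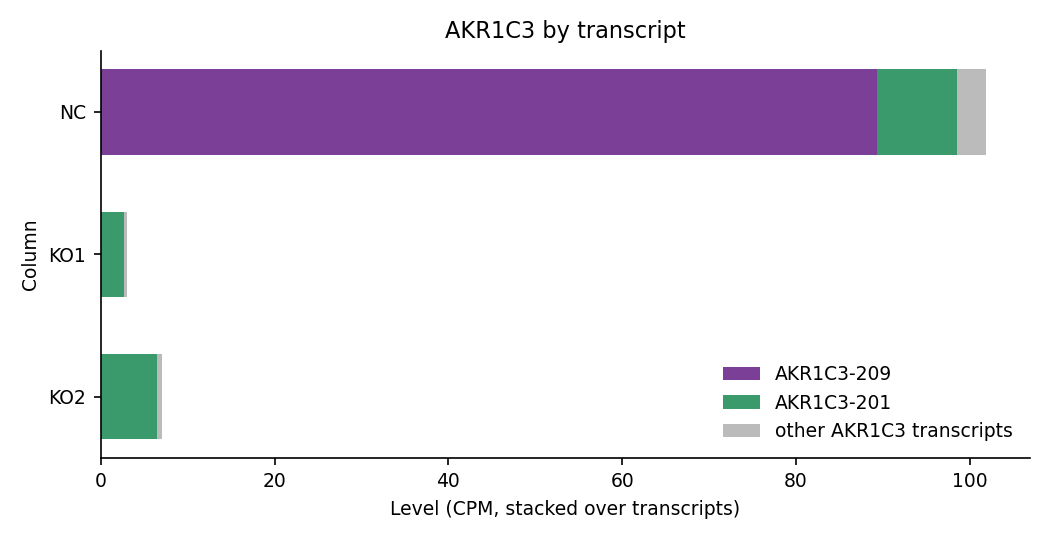
Stacked level of AKR1C3 transcripts (CPM) in the NC, KO1 and KO2 columns, with AKR1C3-209, AKR1C3-201 and all other AKR1C3 transcripts in separate colours. AKR1C3-209 makes up 87.7% of the gene's counts in NC and is absent from both knockout columns, where AKR1C3-201 makes up most of the remainder.

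AKR1C4 (ENSG00000198610, chr10:5195462-5218949, plus strand) encodes the liver form, known for bile acid synthesis. It had 8 counts in NC and 0 in both knockout columns, or 0.287 CPM in NC. Against the floor, KO1 was 2.21-fold (lower limit 1.41) and KO2 2.68-fold (lower limit 1.71) below NC. No fold between KO1 and KO2 can be given. The pseudogene ARL4AP3, which lies inside AKR1C4 on the same strand, also had 8, 0 and 0 counts, so the source of these few reads is uncertain. Summed over AKR1C1 to AKR1C4, NC had 6912 counts, KO1 95 and KO2 286. That is 60.3-fold lower in KO1 (49.2 to 74.6) and 24.3-fold lower in KO2 (21.5 to 27.4), with KO2 2.48-fold above KO1 (1.96 to 3.17).

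AKR1B1 (ENSG00000085662, chr7:134442350-134459284, minus strand) encodes aldose reductase, the first enzyme of the polyol pathway, which also makes prostaglandin F. NC held 34952 counts against 3206 in KO1 and 6749 in KO2, or 1252, 139 and 241 CPM. Only 56 measured genes were at a higher CPM in NC. AKR1B1 was 9.03-fold lower in KO1 (8.71 to 9.37) and 5.20-fold lower in KO2 (5.06 to 5.34). KO2 was 1.74-fold above KO1 (1.67 to 1.81), a log2 fold of 0.80 that does not reach the size rule. With total counts it is 1.054 and with deposited TPM 1.21, both of which would reach it; these settings were chosen for this pair after seeing the data. It remained the member with the most counts in each column, with 81.3%, 74.5% and 77.6% of the counts of all 7 members in NC, KO1 and KO2. All 7 summed were at 1540, 186 and 311 CPM, 8.27-fold (8.01 to 8.53) and 4.96-fold (4.84 to 5.07) lower.

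All 14 annotated transcripts of AKR1B1 had counts in NC. The coding AKR1B1-201 had 31637, 2717 and 5608 counts, 90.5% of the gene in NC and 84.7% in KO1. AKR1B1-205, which keeps an intron, had 2528, 320 and 816 counts. The lower level therefore held for the main coding form and for the main form with a retained intron. The noncoding AKR1B1-209 had 75, 0 and 26 counts. AKR1B1-213 and AKR1B1-214, which keep introns, had 67, 32 and 64 counts and 30, 22 and 21 counts.

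AKR1B10 (ENSG00000198074, chr7:134527592-134541408, plus strand) lies beside AKR1B1 and encodes a reductase of retinal and lipid aldehydes. The columns NC, KO1 and KO2 had 62, 0 and 10 counts, or 2.22, 0 and 0.357 CPM. Against the floor, KO1 was 17.1-fold below NC (lower limit 13.5), and the gene was 6.22-fold lower in KO2 (3.17 to 13.6). KO2 was 2.75-fold above the floor in KO1 (lower limit 1.85). All but 1 of the NC counts were on AKR1B10-201. With a mean under 1 CPM it is not among the measured members.

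AKR1A1 (ENSG00000117448, chr1:45550543-45570049, plus strand) encodes aldehyde reductase, which reduces glucuronate and a broad range of aldehydes. Unlike the others it was not lower in the knockout columns. Its counts in NC, KO1 and KO2 were 1047, 1005 and 1653, or 37.5, 43.5 and 59.0 CPM. In KO2 it was 1.57-fold higher (1.46 to 1.70). In KO1 it was 1.16-fold higher (1.06 to 1.26), a log2 fold of 0.21 that becomes -0.0043 with total counts and -0.12 with protein-coding transcripts alone, so its direction in KO1 depends on the scaling and on the transcripts summed.

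AKR1A1 transcripts did not share 1 pattern, and 11 of the 14 reached 1 CPM in a column. The main coding AKR1A1-202 had 476, 303 and 576 counts, and the coding AKR1A1-203 had 99, 26 and 53. The noncoding AKR1A1-205, from the 3′ end of the gene, had 58, 147 and 205 counts, and the noncoding AKR1A1-208 had 29, 31 and 207. AKR1A1-201 had 1, 78 and 3 counts. Levels of single forms of this gene thus moved in different directions in KO1, and their division rests on the estimation.

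Between the 2 knockout columns, 3 of the 5 measured members, AKR1C1, AKR1C2 and AKR1C3, were higher in KO2 by the size rule and 0 were lower. AKR1B1 would make it 4 with total counts or deposited TPM. Over all genes, 15.1% were higher and 11.1% lower in KO2 against KO1. Since the members were also compared across these columns when they were chosen, nothing is read from that count. With total counts 74.8% of the genes past the rule in this comparison were higher in KO2, and with deposited TPM 81.4%, against 57.6% here, and the median log2 fold of all genes was 0.30 and 0.45 against 0.04.

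Levels of different genes are compared per length, in TPM as deposited and summed per gene. In NC the order was AKR1B1 at 1418 TPM, AKR1C3 at 116, AKR1A1 at 50.1, AKR1C1 at 46.3, AKR1C2 at 8.46, AKR1B10 at 2.20 and AKR1C4 at 0.290. In KO1 it was AKR1B1 at 125 TPM, AKR1A1 at 51.2, AKR1C3 at 2.29 and AKR1C1 at 0.200, with the others at 0. In KO2 it was AKR1B1 at 289 TPM, AKR1A1 at 90.1, AKR1C3 at 6.87, AKR1C1 at 0.740, AKR1B10 at 0.370 and AKR1C2 at 0.190, with AKR1C4 at 0. AKR1B1 led in every column, and AKR1A1, which came after AKR1C3 in NC, was the next gene in both knockout columns. With 1 column per group, neighbours in this order cannot be set against a spread. AKR1C1 ranked below AKR1C3 per length although it had more counts, because its counts sat on a transcript of 6705 bases.

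The AKR1C genes lie together on chromosome 10, so the genes around them were described as well. Within 500 kb of the cluster the annotation holds 32 other genes, of which 5 were measured. ASB13, a ubiquitin ligase adaptor, was at 47.9, 11.1 and 14.3 CPM in NC, KO1 and KO2, and the long noncoding RNA LASTR was at 4.05, 0.346 and 1.499 CPM. Both were lower in both knockout columns by the size rule, beside 5.78% of all measured genes. LASTR reached a mean of 1 CPM only through NC, so nothing is read from this count. NET1 was at 76.1, 33.2 and 103 CPM and passed in KO1 alone. The long noncoding RNA MANCR was higher in both, at 0.502, 3.68 and 16.8 CPM, and TASOR2, at 66.0, 81.6 and 82.6 CPM, passed in neither.

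A stretch of 618 kb from AKR1E2 to TUBAL3 (chr10:4786629-5404830), delimited after its values were seen, holds 20 genes, 4 of them members. Counts were found on 12 of the 20, with all 12 at a lower CPM in both knockout columns than in NC and 6 of them at 0 in both. Of all 28652 genes with counts in a column, 33.5% were at a lower CPM in both and 6.03% at 0 in both; because the ends of the stretch were set by these values, nothing is read from the comparison. The 8 genes with counts that are not members summed to 196, 3 and 4 counts in NC, KO1 and KO2. They include AKR1E2, another aldo-keto reductase, with 43, 1 and 2 counts, TUBAL3, a tubulin-like gene, with 51, 2 and 0, and the pseudogene AKR1C7P with 31, 0 and 0. The noncoding RNA LINC02561 had 47, 0 and 2 counts. Beyond TUBAL3, ASB13 and LASTR were also lower in both columns, while TASOR2, and NET1 in KO2, were not lower, as given above. MANCR, which lies on the AKR1E2 side of the stretch, was not lower either.

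**Figure D3:**
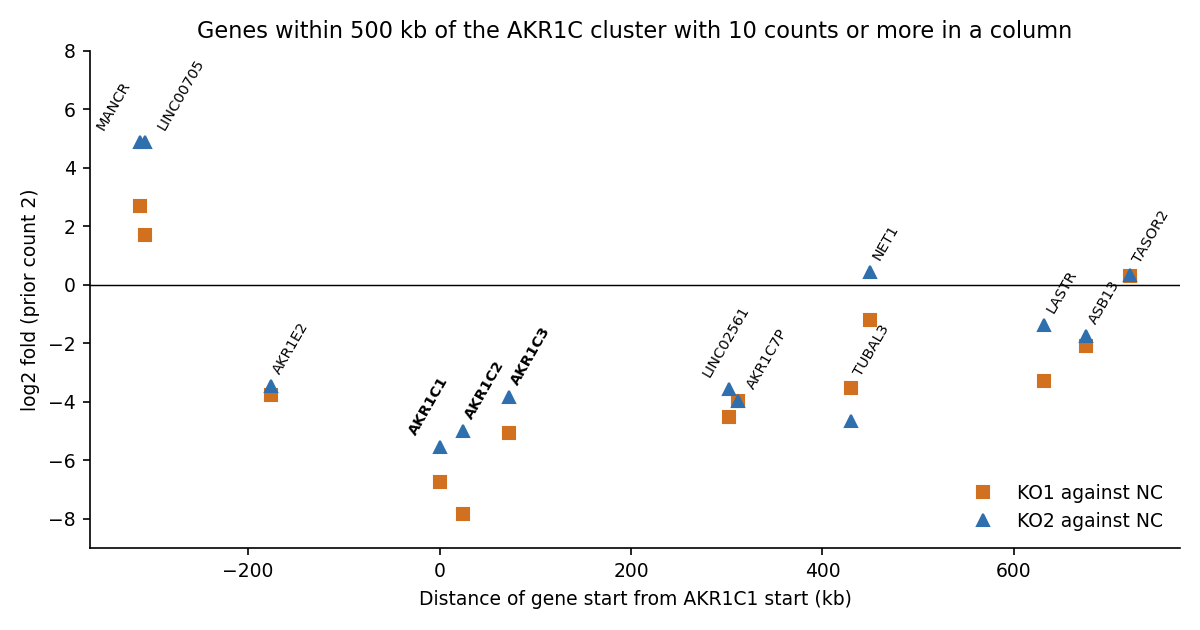
Log2 fold (prior count 2) of KO1 and of KO2 against NC for genes within 500 kb of the AKR1C cluster with at least 10 counts in a column, by distance of the gene's start from the AKR1C1 start in kb; members are in bold. Genes from AKR1E2 to TUBAL3 lie below 0 in both columns, and so do LASTR and ASB13 beyond them; MANCR and LINC00705 lie above 0, TASOR2 lies near 0, and NET1 is below 0 in KO1 alone.

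The neighbours of the other members are given by the same window, and no difference between the regions was tested. Around AKR1B1 and AKR1B10, 6 of 12 other genes within 500 kb were measured, with 1 lower in KO1 and 0 in KO2, beside 17.7% and 10.1% of all genes. AGBL3 was the one lower in KO1, at 2.44, 0.908 and 2.07 CPM, and LRGUK was higher in both, at 0.179, 1.73 and 2.18 CPM. CALD1, an actin-binding protein, was at 159, 89.6 and 88.8 CPM and did not pass. Around AKR1A1, 15 of 30 other genes were measured, with 5 higher and 2 lower in KO1, and 6 higher and 0 lower in KO2. Over all measured genes, 15.2% were higher and 17.7% lower in KO1, and 11% higher and 10.1% lower in KO2. PRDX1, a peroxiredoxin, was at 500, 206 and 477 CPM, and IPP was at 4.37, 1.82 and 5.85 CPM. ZSWIM5, CCDC163 and CCDC17 were higher in both. LINC01144 and MUTYH were higher in KO1 alone, and TESK2, NASP and PIK3R3 in KO2 alone.

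The genes most like the AKR1C genes were found by Euclidean distance to the mean of AKR1C1, AKR1C2 and AKR1C3 in the 2 log2 folds, -6.54 in KO1 and -4.80 in KO2, over 11352 genes at a mean of 5 CPM or more. These folds come from 3 columns. Their mean depends on the prior count: AKR1C2, at 0 counts in KO1, had a log2 fold of -7.83 there, and -9.83 with 0.5. The nearest was DUXAP8, a pseudogene RNA, at a distance of 0.110 and 15.8, 0.0865 and 0.464 CPM. Next came SLCO2B1, an organic anion transporter known to carry steroid sulphates, at 0.415 and 19.8, 0.0865 and 0.571 CPM. In KO1, DUXAP8 and SLCO2B1 were both below the floor of 3 counts, 0.130 CPM. EEF1A2, an elongation factor, B4GALNT1, a ganglioside synthase, and TP53I11 followed at distances of 1.003, 1.004 and 1.08. All 5 genes reached a mean of 5 CPM only through NC, so nothing is read from their likeness.

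Genes of the pathways around the family were then taken as 9 lists of 177 genes in all, of which 125 were measured. Of these, 19 (15.2%) were lower and 2 (1.60%) higher in both knockout columns, beside 5.78% and 6.18% of all genes. The lists were chosen with earlier results of these data known, so nothing is read from the difference between these shares. Some list genes, such as RARB, also reached a mean of 1 CPM only through NC. The edgeR quasi-likelihood test of both knockout columns as 1 group against NC, with Benjamini-Hochberg adjustment over 18289 genes, called 48 genes (0.262%), 19 higher and 29 lower. It called 0 of the 143 list genes it tested, and DESeq2 called 4 (PTGS2, RARB, TBXA2R and TRIM16L). The differences below are therefore given as values. Median log2 folds of all measured genes were -0.02 in KO1 and -0.01 in KO2.

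Of the other aldo-keto reductases 6 of 10 were measured, and 1 was lower in both columns, with list medians of -0.05 and 0.38. KCNAB2, a potassium channel beta subunit of this superfamily, was at 62.0, 4.07 and 20.8 CPM, 15.3-fold (12.4 to 19.0) and 2.99-fold (2.72 to 3.29) lower (edgeR adjusted p = 0.388). AKR7A2, an aflatoxin aldehyde reductase, was at 40.2, 22.4 and 33.7 CPM and did not pass. AKR1D1, a steroid reductase of bile acid synthesis, had 0, 0 and 2 counts, and AKR1B15 had 0 in all columns.

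Among other carbonyl and quinone reductases 18 were measured, 4 were lower and 0 higher in both columns, and the medians were -0.28 and -0.24. NQO1, a quinone reductase and standard NRF2 target, was at 470, 125 and 107 CPM, 3.75-fold (3.604 to 3.91) and 4.39-fold (4.22 to 4.57) lower (edgeR adjusted p = 0.227). PTGR1, which reduces prostaglandins and enals, was at 153, 31.6 and 39.9 CPM (edgeR adjusted p = 0.196). CBR3, a carbonyl reductase, was at 15.6, 1.90 and 6.32 CPM (edgeR adjusted p = 0.580). Its close relative CBR1 was at 35.6, 17.3 and 62.9 CPM, lower in KO1 alone.

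Genes that handle the substrates of these enzymes were listed by pathway. Of 16 measured steroid enzymes and receptors, 0 were lower in both or higher in both, with medians of -0.01 and 0.25. In KO1 0 were higher and 2 lower, and in KO2 5 were higher and 2 lower. The 5 higher in KO2 were HSD17B12, at 84.5, 82.2 and 213 CPM, HSD17B4, at 28.2, 50.2 and 66.3 CPM, STS, steroid sulphatase, at 20.9, 25.4 and 62.8 CPM, HSD3B7 and ESR2. NR3C1, the glucocorticoid receptor, was at 68.9, 94.9 and 95.9 CPM. Of 12 measured prostaglandin genes, 3 were lower and 1 higher in both, with medians of -0.45 and -0.06. PTGS2, the inducible cyclooxygenase that opens prostaglandin synthesis, was at 1.47 CPM in NC, 74.7 in KO1 and 22.0 in KO2, 50.8-fold (37.3 to 71.1) and 15.0-fold (10.9 to 21.1) higher (edgeR adjusted p = 0.0755). TBXA2R, the thromboxane receptor, was at 12.3, 0.476 and 1.25 CPM (edgeR adjusted p = 0.128), and PTGS1, the constitutive cyclooxygenase, was at 2.62, 0.346 and 0.9996 CPM.

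Of 8 measured polyol and hexose genes, 0 were lower and 1 higher in both, with medians of -0.21 and -0.53. HK2, a hexokinase, was at 32.3, 110 and 80.4 CPM (edgeR adjusted p = 0.505). SORD, which oxidises the sorbitol that AKR1B1 makes, was at 35.5, 6.57 and 22.0 CPM, lower in KO1 alone. Of 14 measured retinoid genes, 3 were lower and 0 higher in both, with medians of -0.51 and -0.60. The retinoic acid receptor RARB was at 11.7, 0.0865 and 0.821 CPM (edgeR adjusted p = 0.125), RARA was at 61.1, 27.9 and 28.7 CPM and RXRA at 96.9, 35.1 and 47.6 CPM. Of 20 measured genes of aldehyde and glyoxal removal, 1 was lower in both: ALDH1B1, a mitochondrial aldehyde dehydrogenase, at 73.7, 31.1 and 29.3 CPM, with list medians of -0.48 and -0.25.

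The NRF2 target list, with the family left out, held the most genes past the rule in both columns and also the most measured genes. Of 29 measured targets 10 were lower and 0 higher in both columns, beside 5.78% and 6.18% of all genes. In KO1 13 were lower and in KO2 16, beside 17.7% and 10.1% of all genes, and the medians were -0.77 and -1.18. The list shares NQO1, CBR1 and CBR3 with the list of carbonyl and quinone reductases. ME1, a malic enzyme that makes NADPH, was at 87.1, 22.6 and 21.1 CPM (edgeR adjusted p = 0.242). PIR was at 12.8, 2.16 and 2.61 CPM and TRIM16L at 46.1, 5.32 and 10.5 CPM. GCLC, the catalytic subunit of glutathione synthesis, was higher in KO1, at 11.3, 28.8 and 17.1 CPM, and SLC7A11, the cystine transporter, was lower in KO2 alone, at 123, 139 and 25.7 CPM.

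NRF2's own gene and its regulators did not share 1 direction. Of 11 measured regulators, KO1 had 4 higher and 2 lower, KO2 had 0 higher and 1 lower, and 0 passed in both. NFE2L2, which encodes NRF2, was at 53.0, 134 and 58.2 CPM, higher in KO1 alone. KEAP1, which targets NRF2 for degradation, was at 92.0, 38.7 and 65.7 CPM. The small MAF partner MAFG was at 92.8, 93.7 and 11.6 CPM, lower in KO2 alone, and MAFK was at 26.8, 124 and 49.2 CPM, higher in KO1 alone. The level or activity of NRF2 protein was not analysed here.

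**Figure D4:**
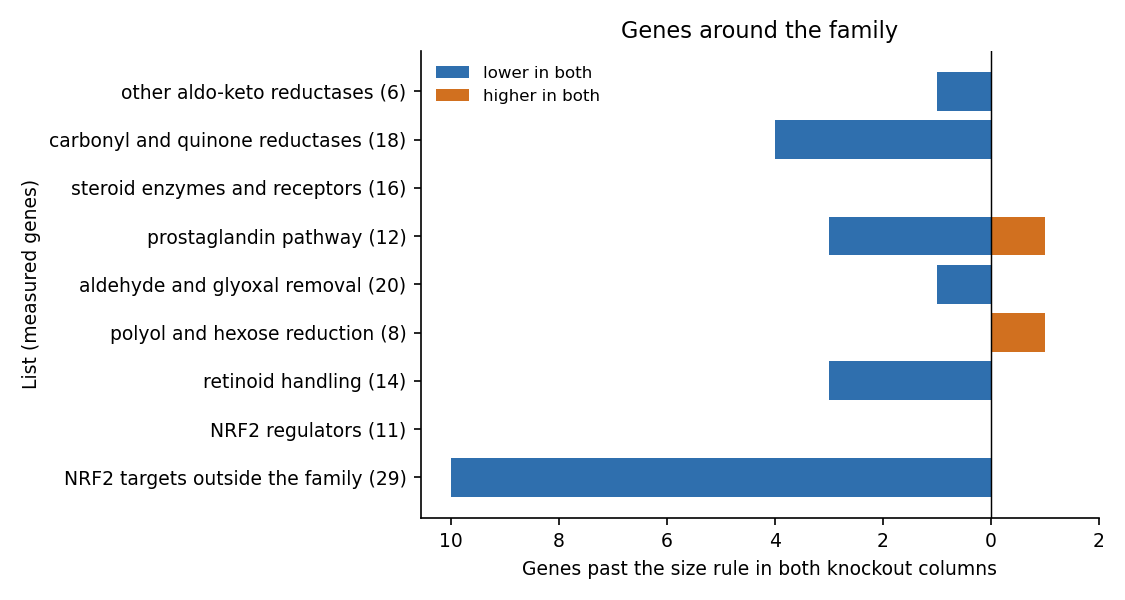
Number of measured genes past the size rule that were lower in both knockout columns than in NC, or higher in both, for the 9 lists around the family (measured genes in brackets); bars to the left are lower in both and bars to the right higher in both. The NRF2 targets outside the family have 10 lower and 0 higher, and the steroid genes and the NRF2 regulators have 0 in either direction.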

How the data were processed

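RNA from 6 samples of MDA-MB-231 cells was deposited as 1 table with 1 column per group for each of 3 units; 0 value columns were left unmatched to a group. The Count columns, per the file headers, were taken to be expected counts per transcript, estimated and rounded up by the authors, because 99.4%, 99.5% and 99.4% of small counts in NC, KO1 and KO2 lay 0 to 1 above the count their FPKM implies. The deposited TPM and FPKM values are the authors' own, scaled per length and per column. The submitters' processing notes name CASAVA, Bowtie2, featureCounts and hg38; the tool behind the transcript estimates, and whether a column is 1 library or 2 combined, are not given in the sources used here.

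Counts were summed per gene ID and scaled by TMM (edgeR 4.0.16, R 4.3.3; factors 1.04, 0.896 and 1.07 for NC, KO1 and KO2). Folds carry exact 95% Clopper-Pearson intervals. The planned edgeR test (two-sided quasi-likelihood, filterByExpr, Benjamini-Hochberg) set both knockout columns against NC, with 1 residual degree of freedom; the lone NC column was assumed to have their spread, and the test was used for genes outside the family alone. On simulated counts with a dispersion of 0.02 it recovered 188 of 200 genes changed 16-fold, with 0 false calls among 17690 genes tested; smaller changes and wider spread were not simulated. DESeq2 1.42.0, other scalings, filters and thresholds were the alternatives. The 3 groups cannot be tested one against another with 1 column each.

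The members and gene lists were chosen with earlier results of these data known. Named were all members and those of their transcripts that reached 1 CPM in a column, up to 3 list genes per direction past the size rule in both knockout columns, neighbours within 500 kb past it, and the 5 genes nearest to AKR1C1, AKR1C2 and AKR1C3 in fold. Other named genes were chosen after their values were seen. Sequences come from RefSeq (GRCh38.p14) and GENCODE 29.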

Additional observations from a re-analysis of the deposited data

How the results depend on the processing

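The fold of AKR1C1 to AKR1C4 summed kept its direction and size under every scaling, prior count and unit tried, with log2 folds from -6.10 to -5.89 in KO1 and from -4.62 to -4.44 in KO2. Single members kept their direction except AKR1A1 in KO1 (from -0.12 to 0.21), and AKR1C3 ran from -5.60 to -2.04 in KO1 and from -4.06 to -0.81 in KO2, the smaller sizes without AKR1C3-209. Folds of the members were the same after leaving mitochondrial genes out of the scaling.

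Genes past the size rule numbered 4776 in KO1, 3061 in KO2 and 3801 in KO2 against KO1. A 1.5-fold threshold gave 7895, 6261 and 6956, and leaving out the filter on mean CPM gave 7086, 5180 and 5716. The edgeR count of 48 became 0 with total counts and 493 without filterByExpr, and DESeq2 called 306; the cause was not tested. With total counts, genes at an unadjusted p under 0.05 numbered 1177. No paired analysis was possible because the columns carry no replicate number, and for the same reason leaving out each replicate was not run. Low counts limit AKR1C4, AKR1B10 and AKR1C2 in the knockout columns to bounds or wide intervals.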
